A study of Mus musculus with 14 samples.

Results

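H3K4me3 was examined at the starts of the glycolytic genes Hk1, Hk2, Gpi1, Pfkl, Pfkp, Aldoa, Gapdh, Pkm and Ldha and of the hypoxia regulator Hif1a in hematopoietic stem and progenitor cells of mice on 2 diets. The genes were chosen by name and are 10 of the 17492 protein-coding mouse genes with a placed start. For each gene, the peaks that reached within 1000 bp of an annotated start were taken in each list. Each library was made by CUT&Tag, in which an antibody directs a transposase to chromatin so that sequenced fragments gather where the mark lies. LSK cells (Lin-Sca1+cKit+), a gate that holds stem cells together with multipotent progenitors, were sorted from the bone marrow of C57BL/6J male mice bought at 3 to 4 weeks of age. The mice were fed for 16 to 20 weeks a high-fat diet with 60% of its energy from fat (HFD-LSK, 3 libraries) or a low-fat control diet with 10% (LFD-LSK, 4 libraries), and 10000 sorted cells were used for each library. No allele or agent other than diet separates the groups in the labels. Whether each library came from 1 mouse is not given, so p-values measure the spread between libraries, which may be technical. The 7 IgG libraries have no list of their own and were not analysed here, but they may have entered the background of the H3K4me3 lists.

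In glycolysis, glucose is phosphorylated by hexokinase, rearranged by phosphoglucose isomerase, phosphorylated again by phosphofructokinase, split by aldolase, and carried through glyceraldehyde-3-phosphate dehydrogenase and pyruvate kinase to pyruvate, which lactate dehydrogenase can reduce to lactate. Hif1a encodes the oxygen-regulated subunit of the transcription factor HIF-1, which binds a short core sequence near genes of glycolysis and raises their transcription when oxygen is low. Hematopoietic stem cells in the marrow are known for a high reliance on glycolysis. H3K4me3 marks the nucleosomes around the starts of active and poised genes, most of all where the DNA is rich in CpG. A peak therefore shows that a start carries the mark and does not measure transcription.

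The lists held 9186, 13094 and 11977 peaks in HFD-LSK replicates 1 to 3 and 7447, 10572, 10352 and 6921 peaks in LFD-LSK replicates 1 to 4. The fewest fragments at any listed summit ranged from 4 in HFD-LSK replicate 3 to 21 in LFD-LSK replicate 1, so a missing peak is not a measured absence. The identity of the cells was checked at marker genes. Of 7 LSK markers with a placed start, 5 had a peak in all 7 lists and Flt3 and Hoxa9 had one in some, whereas none of 10 markers of B cells, T cells, granulocytes, erythroid cells and non-blood tissue had a peak in any list. Each peak carries a fold enrichment, its summit over the background that the peak caller set there, and its rank by fold within its own list (rank 1 is the highest) was used to set lists beside each other, as folds depend on the depth of each library.

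H3K4me3 was found in at least 1 list at the starts of 9 of the 10 genes, and at those of 54.3% of all protein-coding genes. Hk1, Gpi1, Pfkp, Pkm, Ldha and Hif1a had a peak in all 7 lists, as did 22.4% of all protein-coding genes tested. Hk2, Aldoa and Gapdh had a peak in 6 lists, as did 12.9% of all genes. These 3 were missing from LFD-LSK replicate 4 alone, which is the shortest list. Pfkl had a peak in no list, as did 45.7% of all genes. Thus 9 members were called in each list other than LFD-LSK replicate 4, where 6 were. Of all 17492 genes, 7365, 9142 and 8054 were called in HFD-LSK replicates 1 to 3. In LFD-LSK replicates 1 to 4 the numbers were 6215, 8017, 7679 and 5456, so LFD-LSK replicate 4 had the fewest there as well. No member was called in all HFD-LSK lists and in no LFD-LSK list, a pattern shown by 0.166% of all genes. Fisher's exact test gave p = 1 for each member (two-sided; the smallest p that 3 against 4 lists can give is 0.0286), and a p of 1 does not show that the groups are alike.

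**Figure D1:**
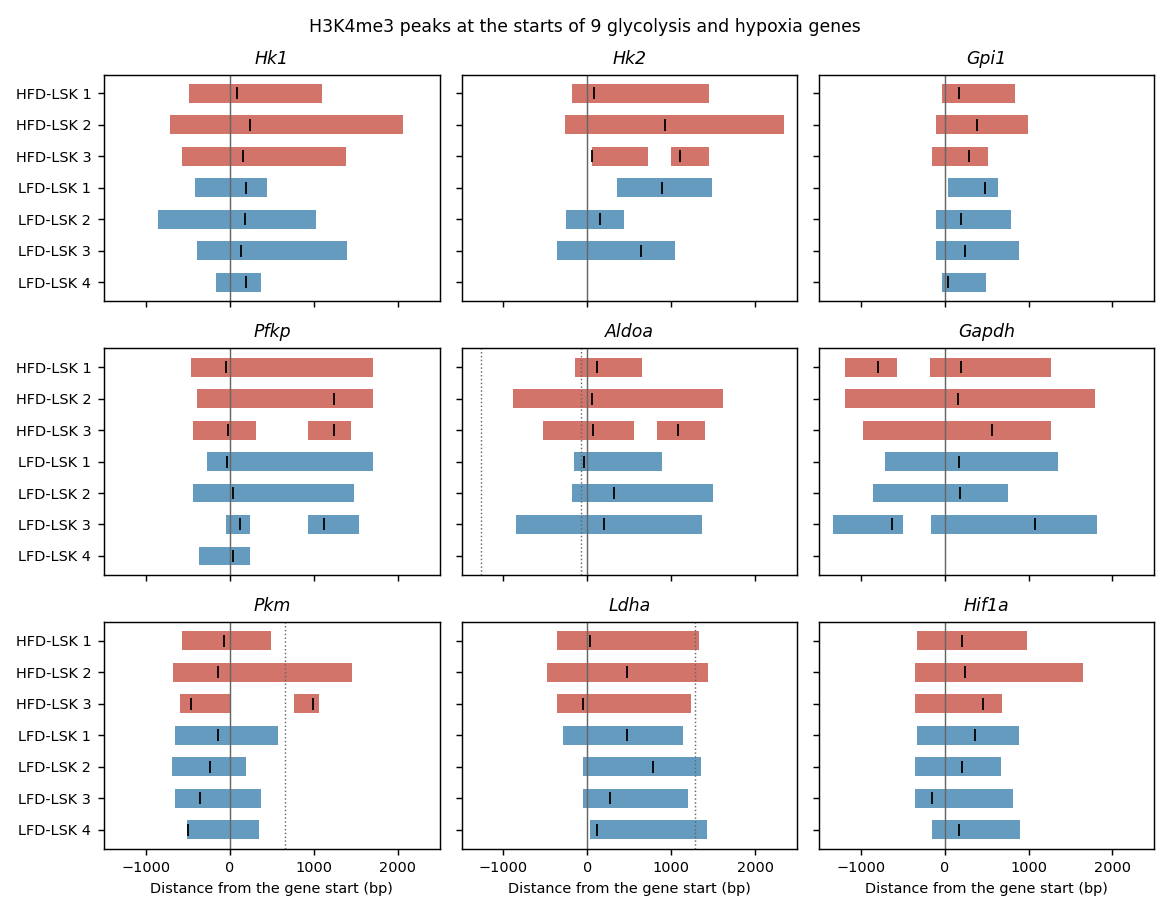
Extent of each H3K4me3 peak (bars) and its summit (black tick) around the gene start (solid line) for the 9 genes with a peak, by list, with distance in bp on the x axis, positive into the gene. Dotted lines are other annotated starts of the gene, and red and blue mark HFD-LSK and LFD-LSK. In each list a Pkm peak begins before the start, Hk2, Aldoa and Gapdh lack a bar in LFD-LSK replicate 4, and the Ldha bars of HFD-LSK begin farther upstream than those of LFD-LSK.

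Hk1 encodes hexokinase 1, the enzyme of the first step. It has a pair of annotated starts on the minus strand of chromosome 10 (GRCm38), an outer one at base 62379908 and an inner one at base 62340421, which lies 39499 bp inside the gene's 5′ end. All 7 lists had a peak over the inner start and none had one over the outer start. The 250 bases before each start are shown, because their CpG content differs. They were taken from RefSeq (GRCm38.p6), run 5′ to 3′ on the gene's strand, and have each CG in capitals. The outer stretch is chr10:62379909-62380158 and the inner stretch is chr10:62340422-62340671.
Hk1 outer start: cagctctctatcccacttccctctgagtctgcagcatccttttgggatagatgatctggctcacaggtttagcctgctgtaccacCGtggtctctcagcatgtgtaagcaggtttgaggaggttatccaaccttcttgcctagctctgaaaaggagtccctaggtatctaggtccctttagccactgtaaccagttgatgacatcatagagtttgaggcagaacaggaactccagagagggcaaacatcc
Hk1 inner start: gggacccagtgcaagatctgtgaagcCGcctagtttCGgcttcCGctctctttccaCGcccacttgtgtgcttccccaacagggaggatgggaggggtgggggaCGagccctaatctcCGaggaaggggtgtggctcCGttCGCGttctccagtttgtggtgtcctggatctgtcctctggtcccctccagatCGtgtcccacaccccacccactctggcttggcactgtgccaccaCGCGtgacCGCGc
The outer stretch held 1 CpG and the inner stretch held 14. Over the 300 bases from 250 before to 50 after the start, the ratio of observed to expected CpG was 0.0507 at the outer start and 0.665 at the inner start. Among all 21263 annotated starts of protein-coding genes, 98.8% of those with 1 or no CpG were covered by a peak in no list, against 13.7% of those with 20 or more. The start of the antisense gene Hk1os lies 187 bp from the inner start, so the peak cannot be given to 1 of the genes.

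The Hk1 peak held rank 1887, 11285 and 3100 in HFD-LSK replicates 1 to 3. In LFD-LSK replicates 1 to 4 it held rank 936, 132, 9 and 1511. Every LFD-LSK list placed the gene nearer the top than any HFD-LSK list did, and in LFD-LSK replicate 3 it was among the strongest of 10352 peaks. The mean rank was 5424 ± 5112 (SD, n = 3) in HFD-LSK and 647 ± 708 (SD, n = 4) in LFD-LSK, a difference of 4777 places. The exact permutation test over the 35 ways of choosing 3 of the 7 libraries (two-sided) gave p = 0.0286, the smallest it can give, and the Benjamini-Hochberg adjusted p over all genes called in every list was 0.751. Without HFD-LSK replicate 2 the difference was 1847 places. As a percent of the list, which allows for the unequal list lengths, the rank was 20.5%, 86.2% and 25.9% in HFD-LSK and 12.6%, 1.25%, 0.0869% and 21.8% in LFD-LSK. LFD-LSK replicate 4 then stood beyond HFD-LSK replicate 1, so the groups overlapped (difference 35.3 percentage points, exact permutation p = 0.0571).

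The fragments behind the Hk1 folds were recovered from the fold and p of each peak, as inferred values. There were 56, 75 and 31 fragments at the summit in the HFD-LSK lists and 72, 69, 54 and 30 in the LFD-LSK lists. The groups overlapped in these raw counts, which are not adjusted for depth. HFD-LSK replicate 2 held the most fragments of all and had the highest mean coverage, 0.268 fragments per base. LFD-LSK replicate 4 held the fewest and had the lowest mean coverage, 0.0891, so the overlap does not show that the groups are alike. The background set by the peak caller, recovered on the same scale, was 0.284, 9.50 and 2.19 fragments in HFD-LSK and 0.567, 0.172, 0.284 and 0.750 in LFD-LSK. The background in HFD-LSK replicate 2 was the highest among the strongest peaks of the members, and the fold there was 6.51, against 21.4 in LFD-LSK replicate 2. When peaks were ranked by fragments instead of fold, Hk1 held rank 2225, 1580 and 501 in HFD-LSK and 948, 281, 9.5 and 939 in LFD-LSK. These ranks overlapped, with a difference of 891 places (exact permutation p = 0.171). The part of the background in the fold ranks was not tested. Ranking by −log10 p gave a difference of 2499 places (exact permutation p = 0.371).

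**Figure D2:**
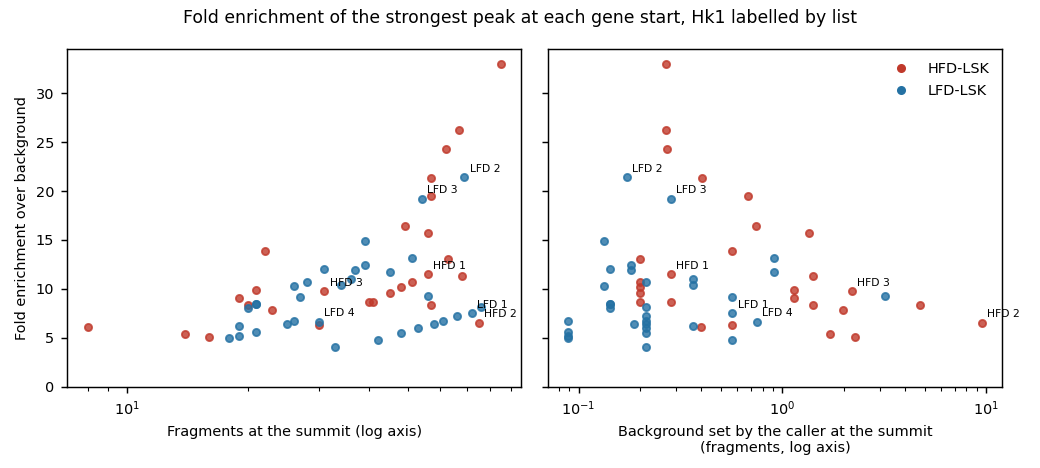
Fold enrichment of the strongest peak at each member start (linear y axis) against the fragments at its summit (left, log axis) and against the background set there by the peak caller (right, log axis), 1 point per gene and list, with the Hk1 points labelled by diet and replicate. Hk1 in HFD-LSK replicate 2 combines 75 fragments with the highest background of all points, 9.50 fragments, and a fold of 6.51.

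Hk2 encodes hexokinase 2, the isozyme that HIF-1 is known to raise. Its start is base 82774454 of chromosome 6, minus strand, and 4 of the 7 lists had a peak over that base itself. Its rank was 7048, 5515 and 9540 in HFD-LSK replicates 1 to 3 and 6357, 8309 and 3871 in LFD-LSK replicates 1 to 3. The groups overlapped, and Hk2 lay below the middle of 4 of its 6 lists. The median summit lay 767 bp into the gene, the farthest of the 9 genes, whereas the median over all genes called in every list was 45 bp. Its width, the summed width of its peaks, was 1629, 2615 and 1117 bp in HFD-LSK and 1141, 691 and 1414 bp in LFD-LSK, which also overlapped. In HFD-LSK replicate 3 the width was made of 2 peaks, and the rank is that of the inner one, whose near edge lay 992 bp into the gene. The one nearer the start held rank 11232.

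Gpi1 encodes phosphoglucose isomerase, which turns glucose 6-phosphate into fructose 6-phosphate. Its start is base 34230336 of chromosome 7, minus strand. The ranks were 4257, 5131 and 3827 in HFD-LSK and 4947, 2464, 3871 and 3785 in LFD-LSK. With overlapping groups, the difference of 638 places gave an exact permutation p of 0.343. Gpi1 had the narrowest peaks of the members called in every list by mean, 867, 1098 and 670 bp in HFD-LSK and 595, 893, 1001 and 527 bp in LFD-LSK. The difference of 124 bp gave an exact permutation p of 0.486.

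Phosphofructokinase commits glucose to glycolysis, and its liver-type gene Pfkl and platelet-type gene Pfkp differed in the lists. Pfkl, with its start at base 78009807 of chromosome 10, minus strand, had no peak within 1000 bp in any list. The nearest was a peak of 522 bp in HFD-LSK replicate 3 (chr10:78007819-78008340), whose near edge lies 1467 bp inside the gene. It rested on 4 fragments at its summit, had a fold of 4.21 and held rank 11416 of 11977, near the end of that list. The 250 bases before the Pfkl start (chr10:78009808-78010057, minus strand, RefSeq GRCm38.p6, 5′ to 3′, each CG in capitals) are shown because they carry no peak although they are CpG-rich.
Pfkl start: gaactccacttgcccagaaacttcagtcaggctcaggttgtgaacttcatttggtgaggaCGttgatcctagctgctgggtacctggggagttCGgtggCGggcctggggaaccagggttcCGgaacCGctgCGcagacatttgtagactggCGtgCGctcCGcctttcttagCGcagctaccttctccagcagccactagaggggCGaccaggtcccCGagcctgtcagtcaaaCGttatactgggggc
This stretch held 13 CpG, close to the 14 of the inner Hk1 start. Over 300 bases the Pfkl start held 20 CpG with an observed to expected ratio of 0.695, and 3 copies of GGGCGG, counted on both strands. Of all starts with 20 or more CpG, 29.1% were covered in all 7 lists, and 13.7%, Pfkl among them, in none. At the depth of these lists no mark was detectable at the Pfkl start.

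Pfkp starts at base 6648771 of chromosome 13, minus strand, and that base was covered in all 7 lists. It held rank 2932, 3719 and 4418 in HFD-LSK and 2673, 2869, 2754 and 1431 in LFD-LSK. Every LFD-LSK list placed it nearer the top, with HFD-LSK replicate 1 next to LFD-LSK replicate 2 in the order. The mean rank was 3689 ± 743 (SD, n = 3) in HFD-LSK and 2432 ± 672 (SD, n = 4) in LFD-LSK, a difference of 1258 places (exact permutation p = 0.0286, adjusted over all genes p = 0.751). By rank as a percent of the list the difference was 4.82 percentage points (exact permutation p = 0.286), and by summit fragments it was 62.7 places (exact permutation p = 1). The width was 2161, 2102 and 1270 bp in HFD-LSK and 1972, 1918, 890 and 609 bp in LFD-LSK. The widths overlapped (difference 497 bp, exact permutation p = 0.314). In HFD-LSK replicate 3 and LFD-LSK replicate 3 another peak, whose near edge lay 925 and 933 bp into the gene, was inside the 1000 bp limit and added to the width. In these 2 lists that inner peak was the stronger one and gave the rank above, whereas the peak over the start held rank 7238 in HFD-LSK replicate 3 and 6654 in LFD-LSK replicate 3. With the peak over the start ranked in each list, a choice made after seeing the data, the diets overlapped (difference 1223 places, exact permutation p = 0.457).

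By the strongest peak, Hk1 and Pfkp were the 2 of 6 members called in every list whose ranks were nearer the top in every LFD-LSK list, a pattern shown by 4.42% of the 3915 genes called in every list. None of the 6 was nearer the top in every HFD-LSK list, as were 1.35% of those genes. The HFD-LSK lists include the 2 longest, and ranks within a longer list can run to larger numbers. The median rank over the 3915 genes was 2680, 2898 and 4646 in HFD-LSK replicates 1 to 3. In LFD-LSK replicates 1 to 4 it was 2506, 2933, 2847 and 2287. HFD-LSK replicate 3 thus stood farthest from the top, and HFD-LSK replicate 2, the longest list, stood among the others. The part of list length was not tested. The median difference over the 3915 genes was 673 places, with 64.6% of genes farther from the top in HFD-LSK, and the median over the 6 members was 1109 places. No gene of the 3915 passed an adjusted p of 0.05 for rank (smallest 0.751), and 149 had an unadjusted exact permutation p under 0.05.

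**Figure D3:**
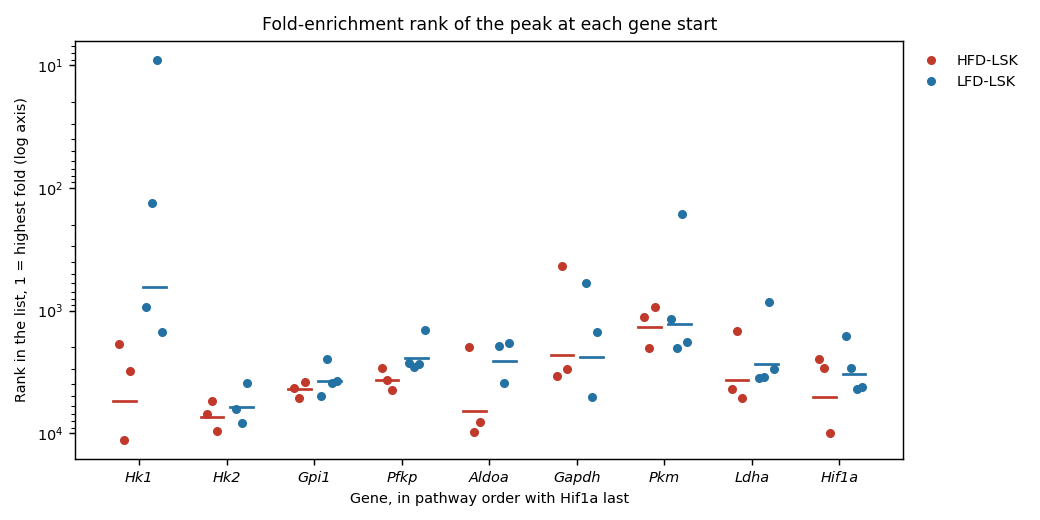
Rank by fold enrichment of the strongest peak at each gene start (y axis, log scale, with rank 1 at the top), 1 point per list and a bar at the mean of each diet. The HFD-LSK and LFD-LSK points do not overlap for Hk1 and Pfkp and overlap for the other genes.

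Aldoa encodes aldolase A, which splits fructose 1,6-bisphosphate. Of its 3 annotated starts on the minus strand of chromosome 7, those at bases 126799178 and 126799254 were covered in 6 lists. The third, at base 126800447, was covered in none. The covered starts held 23 and 24 CpG in 300 bases, and the third held 0, a contrast like that of the Hk1 starts. Aldoa held rank 1989, 9841 and 8120 in HFD-LSK and 1959, 3910 and 1829 in LFD-LSK replicates 1 to 3. HFD-LSK replicates 2 and 3 were far down their lists, whereas replicate 1 stood among the LFD-LSK values. In HFD-LSK replicate 2 the summit held 57 fragments over a background of 4.75, and in HFD-LSK replicate 3 it held 8 over 0.397. The latter is a peak inside the gene that covers no start, with its summit 1078 bp from the nearest one. The peak over the covered starts in that list held 21 fragments over 3.29 and rank 10043. Its widths were 801, 2508 and 1655 bp in HFD-LSK and 1042, 1672 and 2209 bp in LFD-LSK.

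Gapdh encodes the enzyme that oxidizes glyceraldehyde 3-phosphate. It starts at base 125165773 of chromosome 6, minus strand, and had the largest summed width of the members by mean in both diets. The width was 2058, 2977 and 2246 bp in HFD-LSK and 2059, 1608 and 2818 bp in LFD-LSK replicates 1 to 3, which overlapped. It was made of 2 separate peaks in HFD-LSK replicate 1 (1445 and 613 bp) and in LFD-LSK replicate 3 (1981 and 837 bp). In both lists the shorter peak lay upstream of the start. Its rank was 3422, 430 and 3024 in HFD-LSK and 596, 5061 and 1507 in LFD-LSK. The best place of any member in HFD-LSK replicate 2 and in LFD-LSK replicate 1 was that of Gapdh, yet in LFD-LSK replicate 2, where 56 fragments stood over a background of 3.20, it was at rank 5061. Ranks and widths of Hk2, Aldoa and Gapdh were not tested, because tests were run over genes called in every list.

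Pkm encodes pyruvate kinase of muscle and most other tissues. Of its starts on the plus strand of chromosome 9, the one at base 59656576 was covered in 6 lists and the one at base 59657227 in 1, HFD-LSK replicate 2. The median Pkm summit lay at −235 bp, before the start, whereas the median of each of the other 8 genes lay inside the gene. The gene Gm51708 starts 670 bp from Pkm on the opposite strand, and in each list a Pkm peak reached into the stretch between them, so the mark cannot be given to 1 of the genes. Pkm held rank 1129, 2014 and 931 in HFD-LSK and 1174, 2020, 162 and 1817 in LFD-LSK. It had the lowest mean rank of the members in HFD-LSK, and the diets overlapped (difference 65.0 places, exact permutation p = 0.886). The widths, 1063, 2133 and 895 bp in HFD-LSK and 1222, 889, 1035 and 855 bp in LFD-LSK, overlapped as well (difference 363 bp, exact permutation p = 0.371). In HFD-LSK replicate 3 the width was the sum of separate peaks of 599 and 296 bp.

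Ldha encodes the lactate dehydrogenase subunit best known as a target of HIF-1. Its starts on the plus strand of chromosome 7 are base 46845804, covered in 6 lists, and base 46847082, covered in 4. The width of the Ldha peak was 1697, 1924 and 1597 bp in HFD-LSK. It was 1426, 1409, 1244 and 1398 bp in LFD-LSK. Every HFD-LSK list had a wider peak than any LFD-LSK list. The mean was 1739 ± 168 bp (SD, n = 3) in HFD-LSK and 1369 ± 84.3 bp (SD, n = 4) in LFD-LSK, a difference of 370 bp (exact permutation p = 0.0286, adjusted over all genes p = 0.710). Relative to the median width of the genes called in every list, the mean was 1.37 in HFD-LSK and 1.48 in LFD-LSK (difference −0.11, exact permutation p = 0.743), so the order of the diets turned once the general width of each list was taken into account. The ranks of Ldha were 4351, 1471 and 5212 in HFD-LSK and 3519, 3501, 851 and 3003 in LFD-LSK, and overlapped (difference 959 places, exact permutation p = 0.429).

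The edges of the Ldha peak separated the diets on the upstream side. Relative to the first start, the upstream edge lay at −361, −483 and −361 bp in HFD-LSK and at −285, −53, −49 and 27 bp in LFD-LSK. The downstream edge lay at 1335, 1440 and 1235 bp in HFD-LSK and at 1140, 1355, 1194 and 1424 bp in LFD-LSK, which overlapped. These edges were examined after the widths, which already separated the diets, were known, and were not tested. The share of all genes whose upstream edges separate the diets was not computed. Of the 3915 genes called in every list, 93.4% had a larger mean width in HFD-LSK. Which lists cover the cores below follows from the same edges. The 250 bases before the start, chr7:46845554-46845803 on the plus strand (RefSeq GRCm38.p6, 5′ to 3′), are shown because the upstream edges fall in or near them, with the HIF-1 core, ACGTG or GCGTG on either strand, in capitals.
Ldha first start: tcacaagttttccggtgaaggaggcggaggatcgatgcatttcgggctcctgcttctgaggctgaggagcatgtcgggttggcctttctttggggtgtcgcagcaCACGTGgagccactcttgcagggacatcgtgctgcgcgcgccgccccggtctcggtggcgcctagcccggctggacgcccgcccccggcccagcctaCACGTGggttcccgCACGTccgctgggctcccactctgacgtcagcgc
The core was read 5 times here, a palindromic CACGTG being read once on each strand, and 7 times over the 300 bases that end 50 bases after the start. As many as 7 were read at 0.372% of all starts, at 0.692% of starts covered in all 7 lists and at 0.916% of starts with 20 or more CpG. The palindrome at −145 bp was covered by the peak in 3 of 3 HFD-LSK lists and in 1 of 4 LFD-LSK lists, and the palindrome at −48 bp in 3 of 3 and 3 of 4. A match describes the sequence only and does not show that HIF-1 bound there.

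Hif1a itself starts at base 73907867 of chromosome 12, plus strand, 6543 bp inside the outer 5′ end of the gene, and its start was covered in all 7 lists. The 250 bases before it, chr12:73907617-73907866 (RefSeq GRCm38.p6, plus strand, 5′ to 3′, the same cores in capitals), are shown for comparison with Ldha.
Hif1a start: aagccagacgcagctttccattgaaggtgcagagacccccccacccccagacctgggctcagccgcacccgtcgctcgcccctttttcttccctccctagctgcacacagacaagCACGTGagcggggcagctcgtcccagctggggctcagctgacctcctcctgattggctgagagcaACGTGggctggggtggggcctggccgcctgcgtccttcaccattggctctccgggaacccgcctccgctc
The core was read 3 times, and each was covered by the peak in all 7 lists. The rank of Hif1a was 2494, 2955 and 9909 in HFD-LSK and 1618, 2968, 4338 and 4201 in LFD-LSK. HFD-LSK replicate 3 stood far below the others, with 16 fragments over a background of 2.27, and the groups overlapped (difference 1838 places, exact permutation p = 0.629). Without that library the sign turned, to −557 places. The width was 1311, 2005 and 1038 bp in HFD-LSK and 1211, 1028, 1169 and 1050 bp in LFD-LSK, which overlapped (difference 337 bp, exact permutation p = 0.171). The upstream edge was nearly the same in 6 of the lists, between −355 and −329 bp, and lay at −150 bp in LFD-LSK replicate 4.

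Across the 10 genes, 11 of the 15 annotated starts held ACGTG or GCGTG on either strand in their 300 bases. Of all 21263 starts 49.3% did, and of the starts covered in all 7 lists 72.9% did. ACGTG alone was in 20.9% and GCGTG alone was counted in 38.5% of all starts, with starts holding both counted in each.

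Width was compared last over all members. Ldha was the 1 of 6 members called in every list with a wider mark in every HFD-LSK list, as had 6.64% of the 3915 genes. No member and 0% of these genes were wider in every LFD-LSK list. The width of Hk1 was 1588, 2773 and 1962 bp in HFD-LSK and 866, 1893, 1794 and 543 bp in LFD-LSK, with overlap (difference 834 bp, exact permutation p = 0.229). All 6 members had a larger mean width in HFD-LSK, as did 93.4% of the 3915 genes. The median difference was 367 bp over the 6 members and 286 bp over all. The median widths of the lists over these genes were 1118, 1708 and 1100 bp in HFD-LSK and 898, 1305, 1108 and 661 bp in LFD-LSK. Relative to these medians the mean width was larger in HFD-LSK for Hk1 (difference 0.40) and Pfkp (difference 0.09) and smaller for the other 4, and none passed the exact permutation test. No gene passed an adjusted p of 0.05 for width (smallest 0.710), and 148 had an unadjusted exact permutation p under 0.05.

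**Figure D4:**
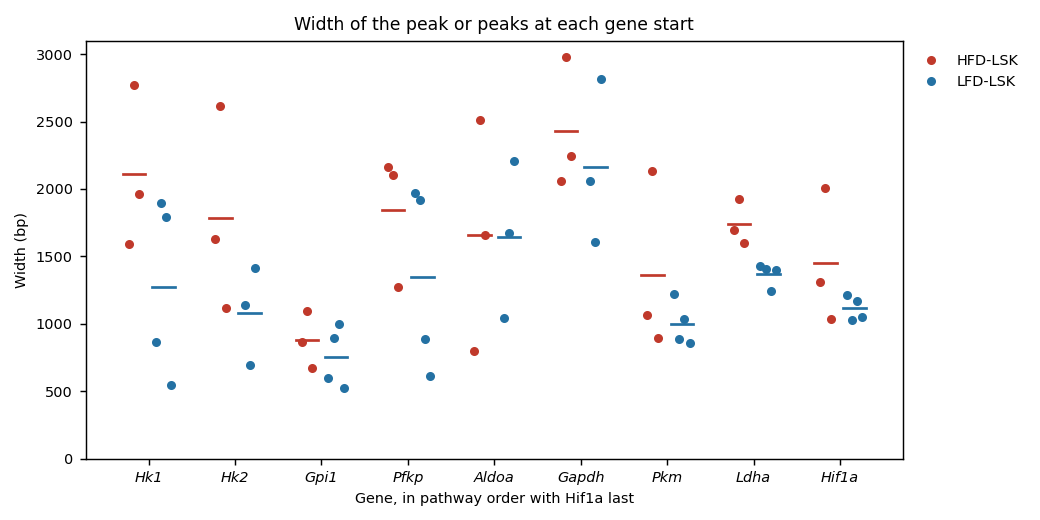
Summed width in bp of the peak or peaks at each gene start (y axis), 1 point per list and a bar at the mean of each diet. The Ldha points of HFD-LSK, 1597 to 1924 bp, lie above all those of LFD-LSK, 1244 to 1426 bp, and those of the other genes overlap.

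The rest of the pathway was described from a list of 48 genes, of which 43 had a placed start. A peak was found in all 7 lists at 11 (25.6%, near the 22.4% of all genes), in some lists at 19 and in no list at 13. A peak in at least 1 list was found at 30 (69.8%, against 54.3% of all genes). Among 19 other enzymes and transporters, Pfkm (muscle phosphofructokinase), Pgam1 (phosphoglycerate mutase), Eno1 (enolase) and Slc16a1 (a lactate transporter) had a peak in every list. Hk3, Hkdc1, Aldoc, Gapdhs, Pgk2, Pgam2, Eno2, Pklr and Ldhc, most of them isozymes known from particular tissues such as testis, muscle, brain or liver, had none. Of the 3 phosphofructokinase genes, Pfkp and Pfkm had a peak in every list and Pfkl in no list.

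The 8 genes that regulate glycolytic flux are the Pfkfb family, which sets fructose 2,6-bisphosphate, and the Pdk family, which restrains pyruvate dehydrogenase. All 8 had a peak in at least 1 list, and Pfkfb2, Pfkfb3 and Pdk1 had one in all 7. Of all protein-coding genes, 54.3% had a peak in at least 1 list, 22.4% in all 7, 12.9% in 6 and 45.7% in none. The small sets of genes described here were not tested against these shares. Of the 11 other pathway genes called in every list, Pfkfb3 was the 1 whose groups did not overlap, by width. A wider mark in every HFD-LSK list was shown by 6.64% of the 3915 genes called in every list. The Pfkfb3 width was 2982, 2967 and 2962 bp in HFD-LSK and 1400, 2815, 2948 and 610 bp in LFD-LSK. The highest LFD-LSK value nearly reached the lowest of HFD-LSK, and the difference of 1027 bp gave an exact permutation p of 0.171 (adjusted over all genes p = 0.710). Of the oxygen-sensing genes, Arnt, the partner of Hif1a, and Vhl, which marks Hif1a for destruction, had a peak in every list, and the hydroxylases Egln1, Egln2, Egln3 and Hif1an had one in 6. Hif3a had none. Of the 9 other hypoxia targets, Ddit4 and Ero1a had a peak in every list, and Car9, P4ha2 and Adm had none.

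Pgk1, phosphoglycerate kinase, was called in 3 of 3 HFD-LSK lists and in 0 of 4 LFD-LSK lists (Fisher's exact test, two-sided, p = 0.0286). It was singled out after its values were seen, and 29 of the 17492 genes, the 0.166% given above, showed the same pattern. Its peaks were narrow, 365, 932 and 450 bp wide in replicates 1 to 3, and held rank 9163 of 9186, 7400 of 13094 and 2923 of 11977, so that in replicate 1 the peak stood at the end of its list. No other of the 43 genes was called in all HFD-LSK lists and in no LFD-LSK list.

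**Figure D5:**
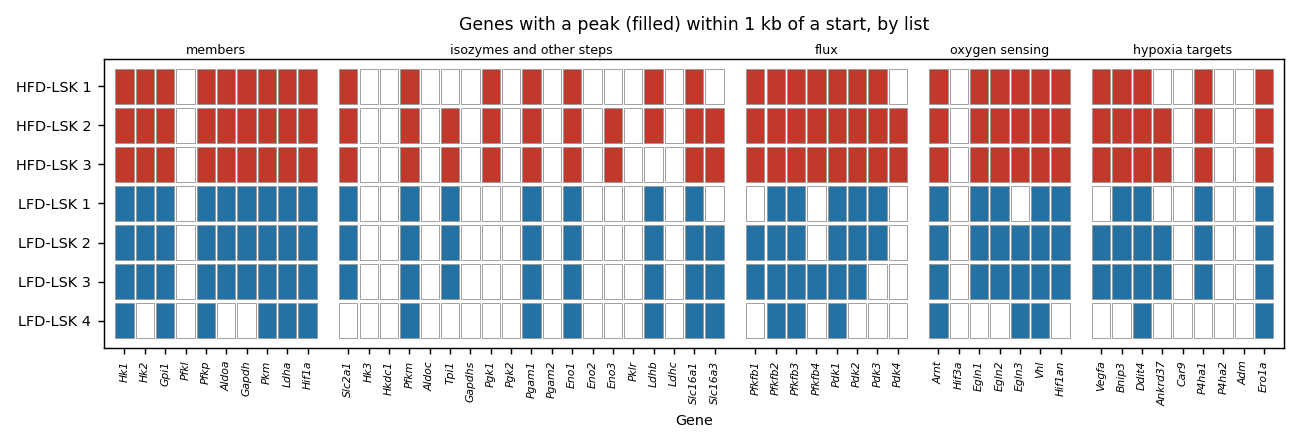
Peaks within 1000 bp of a gene start for the 10 members and the 43 other pathway genes with a placed start (columns) in each list (rows), where a filled box is a called peak, red in HFD-LSK and blue in LFD-LSK. The column of Pfkl is empty, that of Pgk1 is filled in the HFD-LSK lists alone, and LFD-LSK replicate 4 has the fewest filled boxes.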

How the data were processed

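H3K4me3 CUT&Tag peak lists of 3 HFD-LSK and 4 LFD-LSK libraries were analysed, grouped by their labels. The study's methods describe adapter removal with Trim Galore, alignment with Bowtie2 to GRCm39, duplicate removal from controls only and peaks called with SEACR, whereas the submitters' processing notes name MACS2 and GRCm38, with no versions, and the sample titles say CUT&RUN. The lists have the MACS2 narrow peak form and were read as GRCm38. The values the authors deposited with each peak are its fold enrichment (a ratio of summit to background), −log10 p-value, −log10 q-value and score. Each list holds the peaks of 1 H3K4me3 library, and the lowest −log10 p was 5.01, so weak marks are not listed. Folds depend on depth and background. The background may include a matched IgG library, as the study's methods compared each target with its IgG control. The recovered scale from fragments to summit height ran from 0.0958 in LFD-LSK replicate 1 to 0.913 in HFD-LSK replicate 3, and its source was not tested.

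Gene starts came from a RefSeq table of promoters (GRCm38.p6), matched by gene ID. Exons and introns are not given. A gene was called when a peak reached within 1000 bp of any of its starts, was ranked by the fold of its strongest peak (ties averaged), and was given the summed width of its peaks. Fragments at the summit and the background were recovered by solving the fold and the Poisson p of each peak for a whole number of fragments, within a relative error of 5e-05, which was possible for 100% of peaks in each list. They are inferred values, and the mean coverage so recovered was 0.0891 to 0.268 fragments per base.

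Calls were compared by Fisher's exact test, and ranks and widths by an exact permutation test of the difference in means (two-sided) over the 3915 genes called in all 7 lists, with Benjamini-Hochberg adjustment over those genes. Python 3.11.15 with scipy 1.17.1 was used, and the steps were tested on simulated lists. All members were described, and other pathway genes were counted, with names for those called in every list or in none and those whose groups did not overlap. The members, lists and tests were chosen with earlier results of these data known. Alternatives to the filter on q, list length, window, ranking, width and gene start were tried, and each library was left out in turn.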

Additional observations from a re-analysis of the deposited data

Results flagged for a closer look

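Among 12 sets of 4 LFD-LSK values (rank and width of the 6 members called in every list), 2 had a library far from the other 3, where chance gives about 1 in 20. Pfkp was at rank 1431 in LFD-LSK replicate 4, nearer the top than in the other LFD-LSK lists (2673, 2869 and 2754). LFD-LSK replicate 4 is the shortest list, and as a percent of the list the Pfkp ranks of the diets overlapped. The Ldha peak was 1244 bp wide in LFD-LSK replicate 3, narrower than in the other LFD-LSK lists (1426, 1409 and 1398 bp). Without these libraries the Pfkp difference was 924 places and the Ldha difference was 328 bp, each with an exact permutation p of 0.10, the smallest that 3 against 3 lists can give.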

How the results depend on the processing

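The members called in every list numbered 6, and 4 with each list reduced to the length of the shortest, 5 with the summit within 1000 bp, and 6 with a −log10 q of at least 5 or a 3000 bp window. They numbered 3 with the outermost base of the gene as its start, an alternative chosen after seeing the data, which places the starts of Hk1, Ldha and Hif1a away from their peaks. The members nearer the top in every LFD-LSK list numbered 2, and 1 with equal list lengths (Pfkp), 1 with the summit rule (Hk1), 1 by rank among genes called in every list (Hk1), 1 with the peak over or nearest to the start ranked (Hk1, an alternative chosen after seeing the data), and 0 by −log10 p, by percent of the list, by summit fragments (chosen after seeing the data) and with the outermost start. The members wider in every HFD-LSK list numbered 1, and 0 relative to the median width of the list and with the outermost start. None was nearer the top in every HFD-LSK list or wider in every LFD-LSK list under any alternative run. Signs turned for Pkm rank by −log10 p (−170 places), for Gpi1 and Pkm by percent of the list (−6.29 and −3.85 percentage points) and by rank among genes called in every list (−81.1 and −76.2 places), and for the relative widths of Gpi1, Pkm, Ldha and Hif1a (−0.0861, −0.0630, −0.111 and −0.0982). The cause was not tested. None of these had passed the test except the Ldha width.

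Leaving out 1 library at a time gave 6 to 9 members called in every list (9 without LFD-LSK replicate 4), 2 to 3 nearer the top in LFD-LSK (Ldha joined without HFD-LSK replicate 2) and 1 to 3 wider in HFD-LSK (Hk1 joined without HFD-LSK replicate 1, Pfkp and Hif1a without HFD-LSK replicate 3). The difference ranged from −312 to 307 places for Pkm rank, from −557 to 3151 places for Hif1a rank and from −21.3 to 598 bp for Pkm width. With 6 libraries the exact permutation test cannot go below 0.0667, so no member could pass it. Same-numbered replicates were checked over the 3915 genes. The correlations of their deviations were 0.0792, 0.0124 and −0.00862, and those of unlike-numbered replicates ran from −0.0914 to 0.0863. They did not show that the numbers pair the libraries. The study added another cohort for its LSK comparison of diets, and its methods mention covariates such as batch and paired samples. The sample titles name neither cohort nor pair, so the permutation tests took no account of them. With replicates 1 to 3 entered as a block, 2 members were nearer the top in every LFD-LSK pair and 3 were wider in every HFD-LSK pair, and the smallest p that 3 pairs allow is 0.25. Depth limits what can be said of Pfkl and of the 3 members missing from LFD-LSK replicate 4, whose mean coverage was the lowest.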
